A study of Homo sapiens with 16 samples.

Results

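The 10 genes described here are BHLHE40, its paralogue BHLHE41, and 8 regulators of the circadian clock (CLOCK, PER1, PER2, CRY1, CRY2, NR1D1, NR1D2 and DBP), followed across 16 RNA-seq libraries of SK-N-BE(2), which is a line of human neuroblastoma with amplified MYCN. They are 10 of the 63187 genes in the deposited tables, and all 10 were among the 19530 genes with enough reads to test. The genes were chosen by family, and the set was selected on earlier results of the same libraries: the level of BHLHE40 in transfected against WT cells, and the level of all 10 genes in batch 2 against the other batches. Those values are therefore descriptions, and nothing is read from the calls counted for them. The share over all tested genes is given for the edgeR fits on all libraries, but not for most alternative fits.

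The 4 groups hold 4 libraries each: WT cells, and cells transfected with full-length HIF-2α (FL), with NCTAD or with cIDR. The last 2 are the forms that the series design writes ΔN-CTAD and Δc-IDR. HIF-2α, encoded by EPAS1, is the oxygen-regulated subunit of a transcription factor that is degraded when oxygen is plentiful. All groups grew at 21% oxygen with 10% serum. Each replicate number is also a batch in the labels, so the 4 libraries that share a number, 1 of each group, share a batch. The labels give neither the residues removed, nor the vector, nor the time after transfection, nor whether WT cells received an empty vector, so transfection and HIF-2α cannot be told apart in any comparison with WT. Nothing in the labels says that the replicates came from separate cultures beyond the batch, nor that cells were synchronised or collected at a stated hour.

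The circadian clock is a loop of transcription. CLOCK and its partner BMAL1 bind E-boxes, sequences such as CACGTG, and switch on the PER and CRY genes, whose proteins come back to block CLOCK and BMAL1. The same complex drives NR1D1 and NR1D2, nuclear receptors that repress BMAL1, and DBP, an activator that binds D-boxes. BHLHE40 and BHLHE41, also named DEC1 and DEC2, bind E-boxes themselves and repress the same targets, and BHLHE40 is also known as a gene induced by hypoxia through HIF. HIF binds the core ACGTG or GCGTG, and the sequence CACGTG contains an ACGTG on each strand.

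To show where these sequences stand, the 250 bases before the transcription start are printed for BHLHE40, for the 3 other genes that were higher in batch 2, and for NR1D1, a CLOCK target that was lower there. Sequences and positions are RefSeq's, build GRCh38.p14, which holds 13 start sites for the 10 genes. They read 5′ to 3′ on the strand of the gene, and capitals mark ACGTG or GCGTG on either strand.
BHLHE40: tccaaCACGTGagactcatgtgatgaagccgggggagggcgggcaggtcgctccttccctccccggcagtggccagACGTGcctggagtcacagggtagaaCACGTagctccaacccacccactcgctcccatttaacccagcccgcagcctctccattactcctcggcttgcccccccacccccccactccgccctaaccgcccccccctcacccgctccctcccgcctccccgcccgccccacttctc
BHLHE41: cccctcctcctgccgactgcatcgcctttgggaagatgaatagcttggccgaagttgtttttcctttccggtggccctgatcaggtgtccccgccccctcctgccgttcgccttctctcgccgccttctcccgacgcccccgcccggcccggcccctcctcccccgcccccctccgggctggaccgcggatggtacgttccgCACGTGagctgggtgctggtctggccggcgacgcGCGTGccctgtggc
PER1: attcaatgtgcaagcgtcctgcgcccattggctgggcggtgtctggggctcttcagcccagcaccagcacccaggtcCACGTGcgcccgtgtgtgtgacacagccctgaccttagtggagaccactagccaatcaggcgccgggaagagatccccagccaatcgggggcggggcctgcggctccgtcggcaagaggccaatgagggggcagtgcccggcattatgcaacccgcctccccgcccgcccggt
DBP: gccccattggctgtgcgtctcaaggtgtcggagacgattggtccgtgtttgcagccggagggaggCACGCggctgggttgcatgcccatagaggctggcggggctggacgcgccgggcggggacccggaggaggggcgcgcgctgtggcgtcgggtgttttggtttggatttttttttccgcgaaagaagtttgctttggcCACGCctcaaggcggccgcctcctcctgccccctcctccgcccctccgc
NR1D1: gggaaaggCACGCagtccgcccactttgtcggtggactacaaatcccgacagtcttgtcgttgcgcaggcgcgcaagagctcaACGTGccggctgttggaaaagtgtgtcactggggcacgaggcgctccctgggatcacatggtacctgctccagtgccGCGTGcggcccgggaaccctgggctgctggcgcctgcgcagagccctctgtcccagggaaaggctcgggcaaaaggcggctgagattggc
The BHLHE40 window lies at chr3:4979187-4979436 on the plus strand. The others are on the minus strand, at chr12:26125038-26125287 for BHLHE41, chr17:8152405-8152654 for PER1, chr19:48637380-48637629 for DBP and chr17:40100590-40100839 for NR1D1.

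The BHLHE40 window held ACGTG at 3 places. One is a CACGTG whose first base lies 245 bases before the start, which counts as 2 matches because it reads the same on both strands. The other two begin 174 and 149 bases before it. With 4 matches in all it stood among the 0.669% of the 35116 RefSeq promoter windows that have at least as many. Any ACGTG was present in 18.5% of those windows, CACGTG in 6.34% and GCGTG in 32.2%. Among the 13 windows of the 10 genes, 9 held ACGTG and 4 held CACGTG. BHLHE41 had 1 CACGTG, 48 bases before its start, and PER1 had 1 at 173 bases. In PER1 a D-box of the form TTATGNAA began 30 bases before the start, a motif found in 3.03% of all windows. NR1D1 held 1 ACGTG, as part of the E-box variant CACGTT, which is in 4.55% of windows. DBP had no ACGTG and 2 GCGTG. NR1D1 also had 2 GCGTG and BHLHE41 had 1, while BHLHE40 and PER1 had 0. Another CACGTG-bearing window belonged to NR1D2, whose second RefSeq start has 2 of them, at 155 and 105 bases. That NR1D2 window thus had 4 ACGTG matches, as many as BHLHE40, and also 1 GCGTG. These are letter matches only, and binding was not measured.

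EPAS1 checked the labels. It stood between 13.0 and 28.1 counts per M (CPM, scaled by TMM library factors) in WT, and between 1320 and 5852 CPM in the 12 transfected libraries. Reads of the endogenous gene and of the constructs are counted together. In WT, EPAS1 was highest in batch 2, at 28.1 CPM against 13.0 to 17.3 in the other batches. Batch 2 of FL had 2001 CPM of it against 1691 to 3580 in the other batches. NCTAD of batch 2 had 1320 against 2203 to 4228, and cIDR 2189 against 4078 to 5852. The libraries held 38.6 to 56.1 M (mega) estimated counts. Adrenergic neuroblastoma markers summed to 4279 to 5636 CPM, although TH, an enzyme of noradrenaline synthesis, reached only 0.856 to 10.2 CPM. Mesenchymal or Schwann-like markers summed to 32.5 to 58.8 CPM, with VIM at 16.1 to 31.4, SNAI2 at 3.86 to 14.9 and FN1 at 4.37 to 8.59 CPM, and PRRX1 and SOX10 at 0.241 CPM or less. That sum split by batch, at 32.5 to 43.3 CPM in batches 1 and 2 and 50.5 to 58.8 CPM in batches 3 and 4. Of the tested genes, 53.9% differed between batch 2 and the rest (edgeR with group and batch, adjusted p under 0.05). The BHLHE40 differences from WT and the calls against WT are therefore given with and without that batch. The FL library of batch 1 also stood apart for several genes, among them HIF1A at 239 CPM against 334 to 409 CPM in the other 15.

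Levels per transcript length were compared as transcripts per M (TPM), averaged over the 16 libraries. DBP was the highest at 19.9 ± 4.40 TPM (SD, n = 16), followed by CRY1 at 15.7 ± 1.74 and PER1 at 10.6 ± 1.33. BHLHE40 at 9.36 ± 3.57 and NR1D1 at 9.13 ± 1.46 TPM were not separated, BHLHE40 being the higher in 6 of 16 libraries. NR1D2 followed at 8.19 ± 1.36, CLOCK at 5.64 ± 1.14, CRY2 at 4.91 ± 0.591 and PER2 at 3.60 ± 0.724 TPM. BHLHE41 was the lowest at 1.03 ± 0.516 TPM. The order held in every library between CRY1 and PER1, NR1D2 and CLOCK, CRY2 and PER2, and PER2 and BHLHE41, and in 11 to 15 libraries for the remaining neighbours. For BHLHE40 that mean mixes groups at different levels. Its 5.73 ± 1.45 TPM in WT (n = 4) lay below CLOCK at 6.65, NR1D2 at 9.01 and NR1D1 at 9.94. In batch 2 of WT, however, BHLHE40 at 7.79 TPM was above CLOCK at 5.62. In cIDR the BHLHE40 mean of 11.8 ± 3.39 TPM lay above PER1 at 10.7 and NR1D1 at 9.15. This held in batches 1 and 2 only. In batches 3 and 4, BHLHE40 at 9.87 and 9.72 TPM was below PER1 at 10.5 and 10.1 and NR1D1 at 10.3 and 9.74.

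BHLHE40 was higher in each transfected library than in the WT library of its batch. In WT it measured 11.02, 15.9, 10.7 and 9.42 CPM in batches 1 to 4, a mean of 11.7 ± 2.84 (SD, n = 4). FL libraries gave 15.7, 31.7, 17.2 and 17.3 CPM, a mean of 20.5 ± 7.51. Batch 2 was the highest in both groups, and its WT library lay just above the lowest FL library, so FL and WT overlapped.

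In NCTAD, BHLHE40 measured 21.7, 29.9, 19.7 and 18.1 CPM, a mean of 22.4 ± 5.26 (SD, n = 4). The cIDR libraries gave 24.0, 35.0, 21.7 and 20.8 CPM, a mean of 25.4 ± 6.55. Each library of these 2 groups lay above every WT library, as was the case for 0.876% of tested genes in NCTAD and 0.876% in cIDR. cIDR had the highest value of the 4 groups in every batch.

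**Figure D1:**
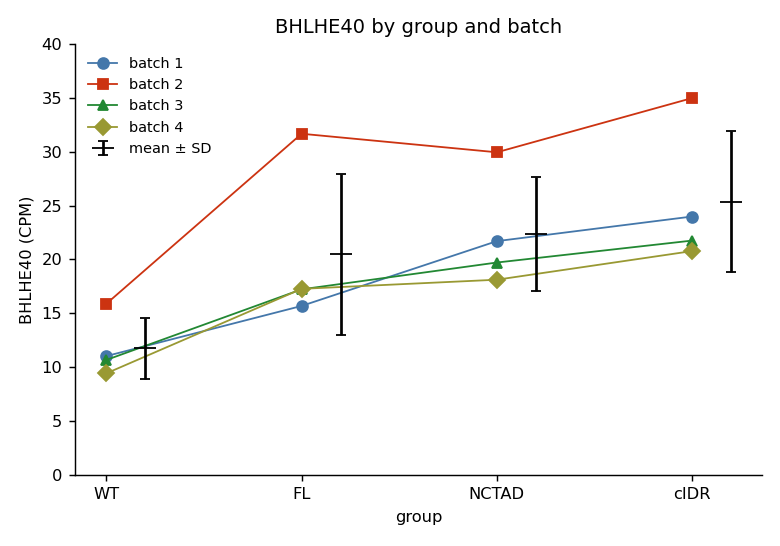
BHLHE40 level in CPM (vertical axis, from 0) in WT, FL, NCTAD and cIDR (horizontal axis); each symbol is 1 library, lines join the libraries of a batch, and black bars show the group mean ± SD of 4 libraries. Every line is lowest at WT, with 9.42 to 15.9 CPM, and batch 2 lies above the other batches in all groups.

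Set against the WT library of the same batch, the BHLHE40 difference in log2 CPM (prior count 2) was 0.51, 0.99, 0.69 and 0.87 in FL, a mean of 0.77 ± 0.21 (SD, n = 4 batches). For NCTAD it was 0.97, 0.91, 0.88 and 0.94, a mean of 0.93 ± 0.039. cIDR gave 1.12, 1.14, 1.03 and 1.14, a mean of 1.10 ± 0.054. The difference thus varied least between batches for NCTAD and cIDR, and batch 2 fell within the range of the other batches for NCTAD but not for FL, where it was the highest.

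The fitted log2 fold change of BHLHE40 in edgeR with group as the only term was 0.80 ± 0.24 (SE) for FL, 0.93 ± 0.24 for NCTAD and 1.11 ± 0.25 for cIDR. With the batch as a replicate block it was 0.78 ± 0.08, 0.93 ± 0.08 and 1.11 ± 0.08, which are 1.71-fold, 1.91-fold and 2.16-fold the WT level. Leaving out batch 2 and keeping the block gave 0.67 ± 0.09, 0.92 ± 0.09 and 1.09 ± 0.09. The sizes were alike with and without the batch term, and the SE was smaller with it.

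Of the 10 genes, edgeR without the block called 0 in FL, NCTAD or cIDR against WT at an adjusted p under 0.05, and 0 between constructs. It called 0.0102%, 0.0256% and 0.0102% of all tested genes against WT, and 0% in each comparison of constructs. Before adjustment, the fit without the block had p under 0.05 for 1 of the 10 in each comparison with WT and for 0 between constructs. Of all 19530 genes, 1.14% (FL), 1.42% (NCTAD) and 1.37% (cIDR) had such a p against WT, and 0.886%, 0.906% and 0.609% in NCTAD against FL, cIDR against FL and cIDR against NCTAD. The block fit had it for 3 in FL (BHLHE40, NR1D1 and NR1D2), 1 in NCTAD and 1 in cIDR against WT. Between constructs it had it for BHLHE40 in cIDR against FL and in cIDR against NCTAD, and for 0 in NCTAD against FL. The block fit's shares of all genes were 5.11% (FL), 5.96% (NCTAD) and 5.45% (cIDR) against WT, and 3.69%, 3.68% and 2.15% in the same 3 comparisons of constructs. DESeq2 with group only called BHLHE40 in cIDR and no other of the 10 in any comparison. With the replicate block, edgeR called 1 of 10 in each comparison with WT, BHLHE40, against 0.102%, 0.456% and 0.486% of tested genes for FL, NCTAD and cIDR. Since BHLHE40 was selected on this contrast, nothing is read from those counts.

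Between constructs, BHLHE40 in cIDR exceeded NCTAD in 4 of 4 batches, by 0.14, 0.22, 0.14 and 0.20 log2 CPM. Against FL it was higher by 0.61, 0.14, 0.34 and 0.27. NCTAD against FL differed by 0.47, −0.08, 0.19 and 0.07, so the order of those constructs was not the same in all batches. With the block the fitted differences were 0.33 ± 0.08 for cIDR against FL, with an edgeR adjusted p of 0.368 and a 95% interval of 0.17 to 0.49. For cIDR against NCTAD they were 0.18 ± 0.08 (adjusted p = 1.00, interval 0.02 to 0.34) and for NCTAD against FL 0.15 ± 0.08 (adjusted p = 0.996, interval −0.01 to 0.31). None passed the threshold, and the edgeR block called 0.0307%, 0.00512% and 0% of tested genes in those comparisons. DESeq2 with the batch gave cIDR against FL an adjusted p of 0.0477, with a log2 difference of 0.33. Over 11 settings with the block, among them leaving out batch 2, the cIDR difference from FL ran from 0.25 to 0.42. That of cIDR from NCTAD ran from 0.14 to 0.22, and that of NCTAD from FL from 0.07 to 0.25. The cIDR library also had the most EPAS1 of its batch in every batch.

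BHLHE41, the paralogue of BHLHE40 with the same E-box binding, did not show that pattern. WT libraries had 1.67, 2.59, 2.15 and 1.58 CPM in batches 1 to 4, and FL libraries had 1.09, 5.50, 1.89 and 1.75 CPM. NCTAD gave 1.70, 3.39, 1.59 and 1.96 CPM, and cIDR 1.92, 3.42, 2.22 and 2.46 CPM. All groups overlapped, and the FL library of batch 2 was the highest of the 16. cIDR was above WT in 4 of 4 batches by 0.05 to 0.62 log2 CPM and above NCTAD in 4 of 4 by 0.01 to 0.47. Its edgeR block estimate against WT was 0.31 ± 0.23 (adjusted p = 0.999), so the SE covers most of the difference. The FL estimate changed sign, from 0.18 ± 0.23 to −0.23, when batch 2 was left out.

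Per transcript length, BHLHE40 stood at 3.92 to 8.39 times the TPM of BHLHE41 in WT and at 6.78 to 17.7 times in the transfected libraries. Its ratio to CLOCK, the activator at the same E-boxes, ran from 0.631 to 1.39 for WT libraries and from 1.21 to 2.99 for FL. The NCTAD libraries gave 1.53 to 3.70, and those of cIDR 1.59 to 3.57. Within each batch the ratio to CLOCK was lowest in WT. The ratio to BHLHE41 was not: WT at 7.48 was above FL at 7.07 and NCTAD at 7.20 in batch 2, and WT at 7.14 was above cIDR at 6.78 in batch 4.

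CLOCK, the activator, lay slightly below WT in NCTAD and cIDR and did not pass the test. Its WT libraries gave 33.4, 21.9, 36.1 and 34.5 CPM, and NCTAD gave 30.3, 20.4, 33.4 and 32.0 CPM. For cIDR the values were 32.0, 21.2, 33.8 and 30.3 CPM. The groups overlapped, and batch 2 was the lowest library of each. Within batches NCTAD was lower in 4 of 4, by −0.14 to −0.11 log2 CPM, and cIDR in 4 of 4, by −0.19 to −0.05. FL had 24.5, 23.8, 33.4 and 35.9 CPM and was lower in 2 of 4 batches, the batch 1 library differing from its WT by −0.45.

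Of the REV-ERB receptors that repress BMAL1, NR1D2 was below WT in every batch of NCTAD and cIDR, and NR1D1 was below it in 3 of 4. Neither passed the test. NR1D2 measured 32.7, 27.5, 33.6 and 34.5 CPM in WT and 21.9, 23.9, 31.9 and 35.9 CPM in FL. In NCTAD it was 27.2, 25.4, 32.4 and 32.7 CPM, and in cIDR 30.7, 24.3, 31.8 and 31.1 CPM. It was lower than WT in 4 of 4 batches in NCTAD and in cIDR, by means of −0.13 ± 0.095 and −0.12 ± 0.047 (SD). NR1D1 had 18.2, 15.3, 17.6 and 18.3 CPM in WT and 12.3, 11.7, 18.02 and 17.9 CPM in FL. NCTAD gave 15.7, 14.3, 19.1 and 17.7 CPM, and cIDR 17.0, 13.3, 19.2 and 18.04 CPM. The low FL values came from batches 1 and 2 only.

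Among the 8 genes other than BHLHE40 and BHLHE41 the largest estimate against WT was that of NR1D1 in FL against WT, at −0.23 ± 0.09 in the edgeR block fit (adjusted p = 0.920). Without the FL library of batch 1 it was −0.16, and without batch 2 it was −0.21. Over 16 libraries with batch means removed, log2 CPM of NR1D1 and NR1D2 had a Pearson r of 0.854, and CLOCK and NR1D2 had 0.821. These points share 1 FL library that is low in all 3 genes, and r is given as a description.

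PER1 and PER2, the period repressors, did not separate the groups. PER1 ranged from 25.3 to 35.6 CPM in WT and 25.3 to 31.5 in FL. NCTAD libraries lay at 25.0 to 33.1, and cIDR libraries at 25.5 to 31.4. Within batches FL differed from WT by a mean of −0.03 ± 0.10 (SD), NCTAD by 0.01 ± 0.10 and cIDR by 0.01 ± 0.16, with 2 of 4 batches higher each time. PER2 ranged from 10.9 to 19.1 CPM in WT and 12.6 to 16.9 in FL, while NCTAD lay at 11.02 to 19.8 and cIDR at 10.7 to 18.6. Its mean difference for the 3 constructs in that order was −0.11 ± 0.25, 0.0040 ± 0.13 and 0.03 ± 0.11 log2 CPM. For neither gene was any of these means larger than its spread over batches.

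CRY1 and CRY2, the cryptochromes that act with the PER proteins, differed as little. CRY1 lay between 27.9 and 29.6 CPM in WT and between 25.4 and 29.2 in FL. The NCTAD libraries gave 24.8 to 33.8, and those of cIDR 22.8 to 29.5. CRY2 stood at 10.7 to 13.7 CPM for WT and 11.8 to 14.2 for FL. Its NCTAD values were 10.9 to 14.1 and its cIDR values 11.2 to 14.3. CRY2 exceeded WT in 4 of 4 batches in NCTAD by a mean of 0.06 ± 0.030 log2 CPM. That sign turned on the TPM scale, where limma gave −0.01.

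DBP, the D-box activator, measured 13.4, 19.8, 14.04 and 11.6 CPM in WT and 15.3, 18.7, 12.2 and 13.2 CPM in FL. NCTAD gave 15.005, 20.3, 10.4 and 12.1 CPM, and cIDR 12.1, 23.1, 13.7 and 12.9 CPM. The groups overlapped throughout and only batch 2 stood out. FL differed from WT by a mean of 0.02 ± 0.20 (SD) log2 CPM, NCTAD by −0.05 ± 0.27 and cIDR by 0.05 ± 0.17.

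**Figure D2:**
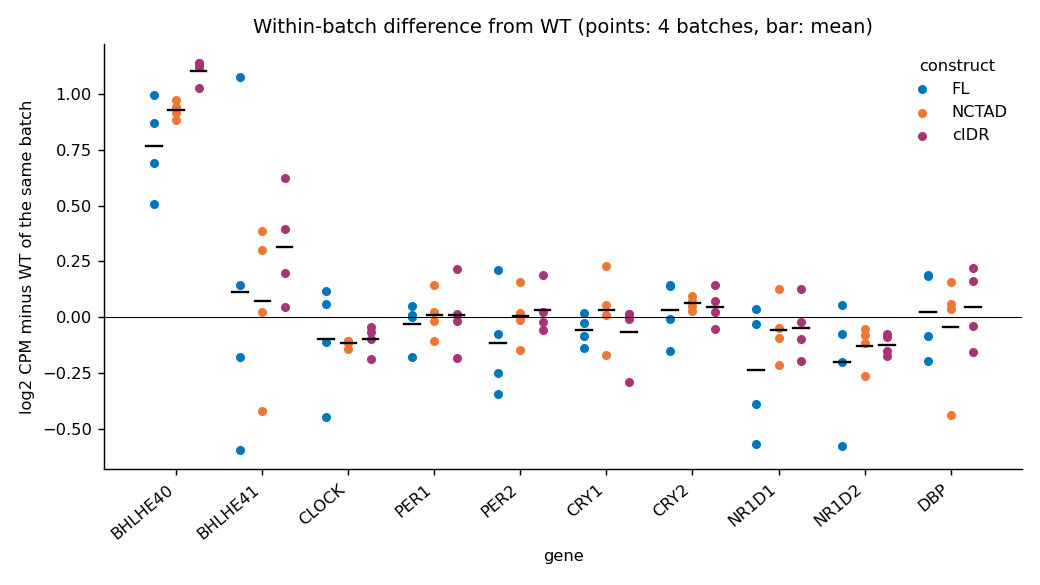
Difference in log2 CPM (vertical axis) between each transfected library and the WT library of its batch, for the 10 genes (horizontal axis); points are the 4 batches, colours the 3 constructs, and bars the means. BHLHE40 lies at 0.51 to 1.14 in all 12 points, and BHLHE41 spreads from −0.59 to 1.08. CLOCK and NR1D2 lie below 0 in all 4 batches of NCTAD and of cIDR.

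For these 9 genes the edgeR block gave adjusted p values of 0.920 or more in all comparisons with WT, and none was called by any fit with a batch term. Without batch 2 the block estimates ran from −0.25 (PER2) to 0.03 (DBP) for FL, from −0.15 (NR1D2) to 0.09 (CRY1) for NCTAD and from −0.12 (CLOCK) to 0.28 (BHLHE41) for cIDR, and the smallest edgeR adjusted p was 0.893. The sign changed for BHLHE41 and CRY2 in FL, for BHLHE41 and PER2 in NCTAD and for DBP in cIDR. CLOCK and NR1D2 kept theirs, at −0.14 ± 0.10 and −0.15 ± 0.11 (SE) in NCTAD and at −0.12 ± 0.10 and −0.12 ± 0.11 in cIDR. Higher than WT in 4 of 4 batches were 1 of the 10 in FL (BHLHE40), 2 in NCTAD (BHLHE40 and CRY2) and 2 in cIDR (BHLHE40 and BHLHE41), against 5.33%, 8.85% and 10.5% of tested genes. Lower in 4 of 4 were 0, 2 and 2 (CLOCK and NR1D2 both times), against 3.94%, 6.48% and 7.12%. In cIDR, 2 exceeded FL in 4 of 4 batches (BHLHE40 and NR1D1) and 2 exceeded NCTAD (BHLHE40 and BHLHE41), against 4.87% and 4.36% of tested genes. The 95% intervals of the block fit for CLOCK, −0.30 to 0.06 in NCTAD and −0.28 to 0.08 in cIDR, include 0.

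For the 9 genes other than BHLHE40, the fitted difference of batch 2 from the other batches was larger in size than that of any construct from WT. All 10 were called in that contrast (edgeR with group and batch), 4 higher and 6 lower, where 27.7% of tested genes were called higher and 26.1% lower. The contrast helped choose the set, so the values are a description. The 4 libraries of batch 2 are a single batch. The SE and adjusted p values of this contrast therefore reflect the spread within batches and do not measure that between batches. What sets batch 2 apart in culture or handling is not in the labels.

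Both E-box repressors were higher in batch 2. BHLHE41 stood at 2.59 to 5.50 CPM there and at 1.09 to 2.46 CPM in the other 12 libraries, a log2 difference of 1.02 ± 0.18 (SE). BHLHE40 stood at 15.9 to 35.0 CPM against 9.42 to 24.0, a difference of 0.70 ± 0.06. It was the highest batch in each of the 4 groups, with differences of 0.62 for the WT, 0.92 for the FL, 0.60 for the NCTAD and 0.66 for the cIDR libraries. The BHLHE40 ranges overlap only because WT and transfected libraries are pooled in them.

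DBP was at 18.7 to 23.1 CPM in batch 2 and at 10.4 to 15.3 CPM elsewhere, a difference of 0.66 ± 0.08. PER1 was at 31.4 to 35.6 CPM against 25.0 to 31.2, a difference of 0.28 ± 0.05. For BHLHE41, DBP and PER1, each batch 2 library was above all other 12, which held for 14.4% of tested genes.

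PER2, unlike PER1, was lower in batch 2. PER2 was at 10.7 to 12.6 CPM in batch 2 against 13.7 to 19.8 CPM, a difference of −0.60 ± 0.08. CLOCK was at 20.4 to 23.8 CPM against 24.5 to 36.1, a difference of −0.57 ± 0.07, and CRY2 at 10.7 to 11.8 against 12.3 to 14.3 CPM, a difference of −0.26 ± 0.05. For these 3 genes each batch 2 library was below all other 12, as for 14.6% of tested genes. NR1D1 was at 11.7 to 15.3 CPM against 12.3 to 19.2, a difference of −0.35 ± 0.07. NR1D2 was lower by −0.31 ± 0.07 and CRY1 by −0.23 ± 0.05, and their ranges overlapped those of the other batches. For NR1D1 the overlap came from the FL library of batch 1, and for NR1D2 from that library and NCTAD of batch 1.

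**Figure D3:**
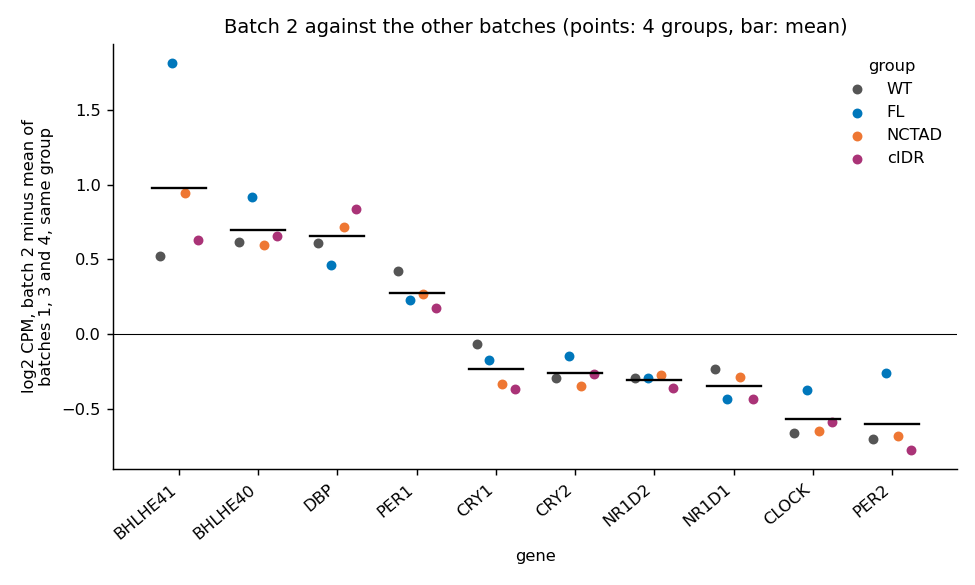
Difference in log2 CPM (vertical axis) between the batch 2 library of a group and the mean of that group's libraries in batches 1, 3 and 4, for the 10 genes in order of their mean (horizontal axis); points are the 4 groups and bars the means. The 4 points of BHLHE41, BHLHE40, DBP and PER1 are all above 0, and those of the other 6 genes are all below 0.

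The direction in batch 2 was shared by the 4 groups for each of the 10 genes. BHLHE41 varied most, from 0.53 in WT to 1.81 in FL, and NR1D2 least, from −0.36 to −0.27.

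**Figure D4:**
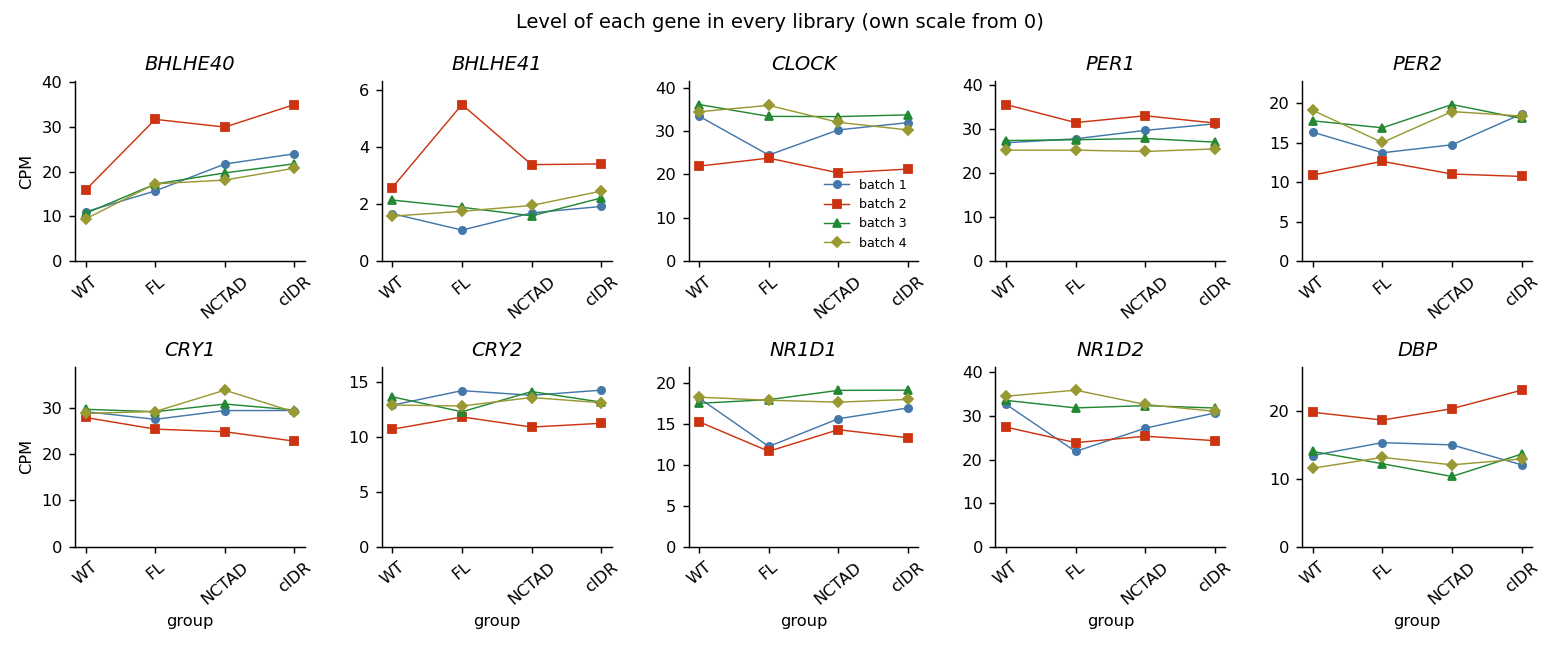
Level in CPM (vertical axes, each from 0 on its own scale) of the 10 genes in WT, FL, NCTAD and cIDR (horizontal axes); each symbol is 1 library and lines join the libraries of a batch. Batch 2, in red squares, runs above the other lines for BHLHE41, PER1 and DBP and below them for CLOCK, PER2 and CRY2.

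Batch and group took different shares of the variance in log2 CPM over the 16 libraries. For BHLHE40 group held 63.8% and batch 33.8%, with 2.44% left over. For the other 9 genes batch held 63.9% (NR1D2) to 85.7% (PER1) and group 1.12% (DBP) to 16.7% (NR1D1). The median over all tested genes was 53.8% for batch and 7.85% for group. BHLHE40 ranged 3.70-fold between its lowest and highest library, BHLHE41 4.89-fold and CRY2 1.33-fold.

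Of 19 further clock genes, 16 were tested, and NPAS2, RORB and FBXL21P were too low. None was called in FL, NCTAD or cIDR against WT, or between constructs, by edgeR with or without the block. In the block fit 2 of the 16 had p under 0.05 before adjustment for cIDR against WT, and 0 for the other constructs against WT, where 5.45% (cIDR), 5.11% (FL) and 5.96% (NCTAD) of all genes had it. Between constructs it was 3 of 16 in cIDR against FL, beside 3.68% of all genes, and 0 in the other comparisons. CIART, a repressor of the CLOCK complex, was at 0.42 ± 0.19 in cIDR against WT (edgeR adjusted p = 0.898), and at 0.48 ± 0.24 without batch 2. For BMAL1, the partner of CLOCK, FL differed from WT by −0.18 ± 0.14, NCTAD by 0.06 ± 0.13 and cIDR by −0.02 ± 0.13. Without batch 2 these were −0.27 ± 0.16, 0.11 ± 0.16 and −0.04 ± 0.16, and 0 of the 16 genes were called in any comparison. The block fit's median log2 fold change over the 16 genes was −0.04 (FL), 0.02 (NCTAD) and 0.0022 (cIDR), beside 0.01, 0.02 and 0.01 over all tested genes. Without batch 2 it was −0.09, 0.02 and −0.03, beside −0.01, 0.01 and 0.0044.

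In batch 2, 2 of those 16 were called higher and 6 lower, where 27.7% and 26.1% of all tested genes were. Higher were RORA, the activator that competes with NR1D1 and NR1D2, at 0.51 ± 0.08, and CIART at 0.55 ± 0.15. Among those lower were TIMELESS at −0.67 ± 0.04, PER3 at −0.44 ± 0.14, BMAL2 at −0.40 ± 0.15, CIPC at −0.29 ± 0.04 and HLF at −0.26 ± 0.09. HLF is a D-box activator like DBP. BMAL1 (0.24 ± 0.11, adjusted p = 0.0777), NFIL3, a D-box repressor (0.18 ± 0.07, adjusted p = 0.0546), and TEF, another D-box activator (−0.01 ± 0.07, adjusted p = 0.949), were not called by edgeR.

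Genes known to respond to hypoxia were also higher in batch 2. Of 12 such genes, 11 were called higher, where 27.7% of all tested genes were, with a median log2 difference of 1.38 beside 0.03 over all tested genes. VEGFA, the angiogenic growth factor, was higher by 1.495 ± 0.085, NDRG1 by 3.27 ± 0.23, and the peptide hormone gene ADM by 0.84 ± 0.16. Their summed level was 862 to 1463 CPM in batch 2 and 312 to 596 CPM in the other 12 libraries. The part of these values in the BHLHE40 difference was not tested. Against WT, edgeR without the block called 0 of the 12 in each construct, with p under 0.05 before adjustment for 2 in FL, 2 in NCTAD and 3 in cIDR, beside 1.14%, 1.42% and 1.37% of all genes. The block fit called 0 in FL, 6 in NCTAD and 8 in cIDR, all higher, beside 0.102%, 0.456% and 0.486% of all tested genes. Without batch 2 it called 1, 4 and 3, all higher, beside 0.0838%, 0.325% and 0.241% of 19102 genes.

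Of 10 genes that respond to serum or cAMP, which also induce PER1, 5 were called higher and 4 lower in batch 2, beside 27.7% and 26.1% of all tested genes. EGR1 was higher by 1.198 ± 0.090, SIK1 by 0.58 ± 0.21 and NR4A1 by 0.35 ± 0.05, and FOS lower by −0.95 ± 0.15. Against WT 0 of the 10 were called in any construct by edgeR with or without the block, and 0 by the block fit without batch 2. Before adjustment the block fit had p under 0.05 for 1 of them in FL, 2 in NCTAD and 1 in cIDR, beside 5.11%, 5.96% and 5.45% of all genes.

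Among 12364 genes with a mean log2 CPM of at least 1, those most like BHLHE40 over the 16 libraries by Pearson r were RGS4 (0.950), SLC18A1 (0.946), TRIM29 (0.943), CRH (0.927) and WT1 (0.922). With batch means removed they were EPAS1 (0.956), WT1 (0.952), MYADM (0.947), RGS4 (0.946) and SLC18A1 (0.941). RGS4, SLC18A1 and WT1 were on both lists. EPAS1 had r = 0.730 before the batch means were removed, while HIF1A and ARNT, which encode the related subunit and the shared partner of HIF-2α, had −0.04 and 0.38. The 16 points share 4 batches and 4 WT libraries that are low in BHLHE40 and EPAS1 alike. Among the 10 genes, the lowest r with batch means removed was that of PER2 and DBP, at −0.735.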

How the data were processed

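RNA-seq was done on 16 SK-N-BE(2) libraries in 4 groups of 4. Estimated counts per gene, as deposited, are Salmon output not scaled to depth. The deposited TPM values are scaled to 1 sum per library. Both are as named in the tables, and the submitters' processing notes list fastp, STAR, Salmon, featureCounts and GRCh38 without versions. Column names of the tables call WT control and FL wild type, and were matched through the library names in the labels. These names also begin with BE2c, where the titles say SK-N-BE(2), and write NTAD where the titles say N-CTAD.

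Estimated counts (15.5% not whole) were rounded, filtered with filterByExpr by group and fitted by edgeR 4.0.16 (quasi-likelihood test, TMM; R 4.3.3). The main fit of the group comparisons had group as its only term, and the alternative added the batch as a replicate block. Batch 2 was set against the mean of the other 3 batches with group and batch in the model. Calls used a Benjamini-Hochberg adjusted p under 0.05 over 19530 genes. Log2 CPM used a prior count of 2. Within-batch differences are values with no test. Alternatives used DESeq2 1.42.0 and limma 3.58.1 on log2(TPM + 1) and log2(TPM + 0.1), other size factors and filters, and each library left out. Leaving out batch 2 (for the lists too), DESeq2 with the batch, and each library left out with the block were added after seeing the data. The scripts were tested on simulated data. Figures were drawn with matplotlib 3.10.9.

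The pairing by batch comes from the labels. Deviations from group means correlated by 0.308 on average between libraries of the same batch (0.0674 to 0.712, 24 pairs) and by −0.0945 between batches. The biological coefficient of variation was 0.245 without and 0.108 with the block. Chi-square per degree of freedom between replicates was at least 6.96, so no library was a copy. At the lowest depth, 1 count is 0.0259 CPM. p-values measure the spread between these libraries, which may be technical.

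The genes named are the 10, further clock genes called in any contrast or listed by role, EPAS1, HIF1A and ARNT, the 5 genes most like BHLHE40 by each measure, and up to 4 hypoxia and serum or cAMP genes. An item covered by this rule for named genes is not reported here. The neuroblastoma and mesenchymal markers fall outside the rule, and those named were chosen after their values were seen. The members and lists were chosen with earlier results of these data known. Promoter windows were matched to RefSeq by symbol for 10 of 10 genes.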

Additional observations from a re-analysis of the deposited data

Results flagged for a closer look

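In each of the 40 sets of 4 libraries, 1 per gene and group, the highest and lowest library were compared with the rest by Dixon's ratio of gap to range. In 6 sets a library lay beyond the 95% critical value, which about 1 in 20 sets pass by chance. All 6 libraries were of batch 2, on whose levels the genes were selected, so the values are a description and the number of such sets is not evidence. BHLHE40 in FL was 31.7 CPM in batch 2 and 15.7 to 17.3 CPM in the other batches. In cIDR, DBP was 23.1 CPM against 12.1 to 13.7, PER2 was 10.7 CPM against 18.1 to 18.6, CRY1 was 22.8 CPM against 29.04 to 29.5, and NR1D2 was 24.3 CPM against 30.7 to 31.8. CRY2 in NCTAD was 10.9 CPM against 13.6 to 14.1.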

How the results depend on the processing

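Against WT, edgeR without the block called 0 of the 10 genes in each comparison, and the replicate block made this 1, BHLHE40, for FL, NCTAD and cIDR. The count was also 1 in each when batch 2 was left out, with or without the block, and in DESeq2 with the batch. The block fit without batch 2 called 0.0838% (FL), 0.325% (NCTAD) and 0.241% (cIDR) of 19102 genes. DESeq2 with group only gave 1 for cIDR. Between constructs, DESeq2 with the batch gave 1 for cIDR against FL (BHLHE40) where edgeR gave 0. Leaving out each library gave 0 to 0 without the block and 1 to 1 with it against WT, and 0 to 0 between constructs. In batch 2 all 10 were called under every alternative except limma on TPM, which called 7 and lost CLOCK, CRY1 and NR1D2 (10 to 10 with each batch 2 library left out). The block changed no other call. Apart from the block fit without batch 2, shares over all genes are not given for these alternatives. The contrasts with WT and of batch 2 helped choose the genes, so nothing is read from these counts.

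Across settings with the block, BHLHE40 was at 0.67 to 0.85 in FL, 0.89 to 0.97 in NCTAD and 1.08 to 1.13 in cIDR, and without it at 0.51 to 0.98, 0.73 to 1.11 and 0.91 to 1.29. Signs of the small differences were less stable: of 60 fold changes, 2 changed sign with the block, 13 without batch 2 and 19 on log2(TPM + 1). Leaving out each library changed 103 of 480, of which 2 were BHLHE40 between constructs. No fold change in batch 2 changed sign. BHLHE41, at 1.09 to 5.50 CPM, was the gene least deeply covered and had the largest SE.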
